A study of Mus musculus with 8 samples.

Results

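The transcripts of 10 genes that cells are known to induce at low oxygen, and that do not belong to glycolysis, were followed in bone marrow B cells after ovariectomy. The genes were taken by symbol: Bnip3, Bnip3l, Vegfa, Ankrd37, Ddit4, Car9, Ndrg1, P4ha1, Adm and Kdm3a. All 10 were found among the 54532 genes of the count table, and all 10 were among the 15305 genes with enough reads to be tested. The RNA came from total B cells, taken from mouse bone marrow with magnetic beads, of ovariectomized mice (OVX) or sham-operated mice (Sham), with 3 libraries per group. Ovariectomy removes the main source of estrogen and served as a model of menopause, and the sham mice went through surgery without it. The labels name no further treatment. The study's methods describe the surgery in 8-week-old females, among them Hif1a f/f mice with and without Mb1-cre, and do not name these libraries. The genotype and strain of their mice, the time from surgery to collection and any pooling are not given in the sources used here. The labels do not say that each library came from another animal, so p-values measure only the spread between these samples, which may be technical. HIF-1α ChIP-seq and input libraries of the series were not analysed here.

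At normal oxygen, prolyl hydroxylases of the EGLN family mark HIF-1α for ubiquitination by the VHL complex, and the protein is destroyed. When oxygen is low, HIF-1α is stable, pairs with ARNT and binds hypoxia response elements, whose core reads ACGTG or GCGTG, beside genes of glycolysis, mitophagy, vessel growth, pH control and oxygen sensing itself. Bone marrow is a tissue of low oxygen tension in which B cells pass from pro-B and pre-B cells to mature B cells. The study asked whether this pathway is altered in marrow B cells when estrogen is lacking, and transcripts of HIF targets are a common readout of it, although many of them also answer to other signals. It reported more HIF-1α protein in these cells after ovariectomy, and higher expression of HIF-1α target genes. The target genes and criteria of the study were not compared with the fits below.

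The promoters of 6 of these genes are shown because the core of the response element is the sequence feature they could share. RefSeq promoter windows (GRCm38.p6, 250 bases before to 50 bases after a transcript start) were found for 8 of the 10 genes, and Bnip3l and Ndrg1 were not in the table. Each window was searched for ACGTG and GCGTG on both strands, which read CACGT and CACGC on the other strand, and overlapping matches were taken as 1 site. Stretches upstream of the start are printed 5′ to 3′ on the strand of the gene, with the core letters in capitals.
Bnip3: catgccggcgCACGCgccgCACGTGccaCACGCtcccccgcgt
Ddit4: cctggaggggGCGTGgcctcgccgg
Adm: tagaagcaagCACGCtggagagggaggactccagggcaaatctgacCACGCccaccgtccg
Car9: atttccgatgCACGTacagcccgtc
P4ha1: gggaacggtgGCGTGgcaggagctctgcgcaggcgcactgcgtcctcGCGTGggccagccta
Kdm3a: gggaggctgtGCGTGtcttgtgaga
The Bnip3 stretch (chr7:138909591-138909633, minus strand) lay 127 to 85 bases before the start and held 3 sites within 43 bases. The Ddit4 stretch (chr10:59951871-59951895, minus strand), the Adm stretch (chr7:110627557-110627617, plus strand), the Car9 stretch (chr4:43506998-43507022, plus strand) and the P4ha1 stretch (chr10:59323123-59323184, plus strand) also lay upstream of their genes. The Kdm3a stretch (chr6:71632930-71632954, minus strand) lay before a transcript start but inside the annotated span of the gene. The core is short, and 43.8% of 32851 RefSeq promoter windows and 46.7% of 27025 genes held at least 1 match. All 8 genes with a window held a match, in 8 of their 11 windows. For Vegfa, the window at the outermost start held none and the window at a start inside the gene held 2, and the response element known for Vegfa lies further upstream than such a window reaches. A match is a description of the letters and not of binding.

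The libraries held between 23838775 and 33136701 counts. General B cell genes were expressed in all 6 libraries, as the 12 listed ones held 1.18% to 1.36% of the counts. The libraries differed in the stage of their B cells and in transcripts of other cells. The 11 pro-B and pre-B genes held 0.347%, 0.190% and 0.232% of the counts in the Sham libraries, in the order of replicates 1 to 3, and 0.279%, 0.356% and 0.366% in the OVX libraries. The 11 mature B genes held 0.509% in Sham replicate 2 and 0.275% to 0.321% in the other 5 libraries. All 18 listed neutrophil genes and all 18 listed monocyte and macrophage genes were detected, none at 0 in any library, and held 0.268% to 1.03% and 0.145% to 0.280% in Sham, against 0.116% to 0.434% and 0.0848% to 0.211% in OVX. Below, levels are in CPM, the reads of a gene scaled to the size of its library after correction by edgeR's TMM factors, and are always given for replicates 1, 2 and 3 in this order. In such bulk samples fewer cells of a type and less RNA per cell cannot be told apart.

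None of the 10 genes was called different between OVX and Sham, and the share of all genes called was 0%. Calls were made with edgeR's quasi-likelihood test, adjusted by Benjamini-Hochberg over all genes tested, at a threshold of 0.05. DESeq2 and limma-voom called 0 of the 10 as well. At an unadjusted p-value under 0.05 there was 1 of the 10 genes, Kdm3a, against 574 or 3.75% of all genes. Over 14 alternative fits Kdm3a was under 0.05 in 10, Vegfa in 3, Ddit4 in 2, Bnip3l in 1 and the other 6 genes in 0. The fit without Sham replicate 1 was among them for each gene with any. All genes under 0.05 numbered from 206 of 15305 (block on the replicate number) to 2698 of 16051 (without Sham replicate 1). In OVX 5 of the 10 genes had higher and 5 had lower estimates, next to 51.8% lower over all genes. Their median log2 fold change was 0.04, where that of all genes was -0.01. A p-value that misses the threshold does not show that levels are equal, and the 95% intervals given for each gene carry what these libraries allow. None of the 10 intervals reached a log2 fold change of 1 in either direction.

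**Figure D1:**
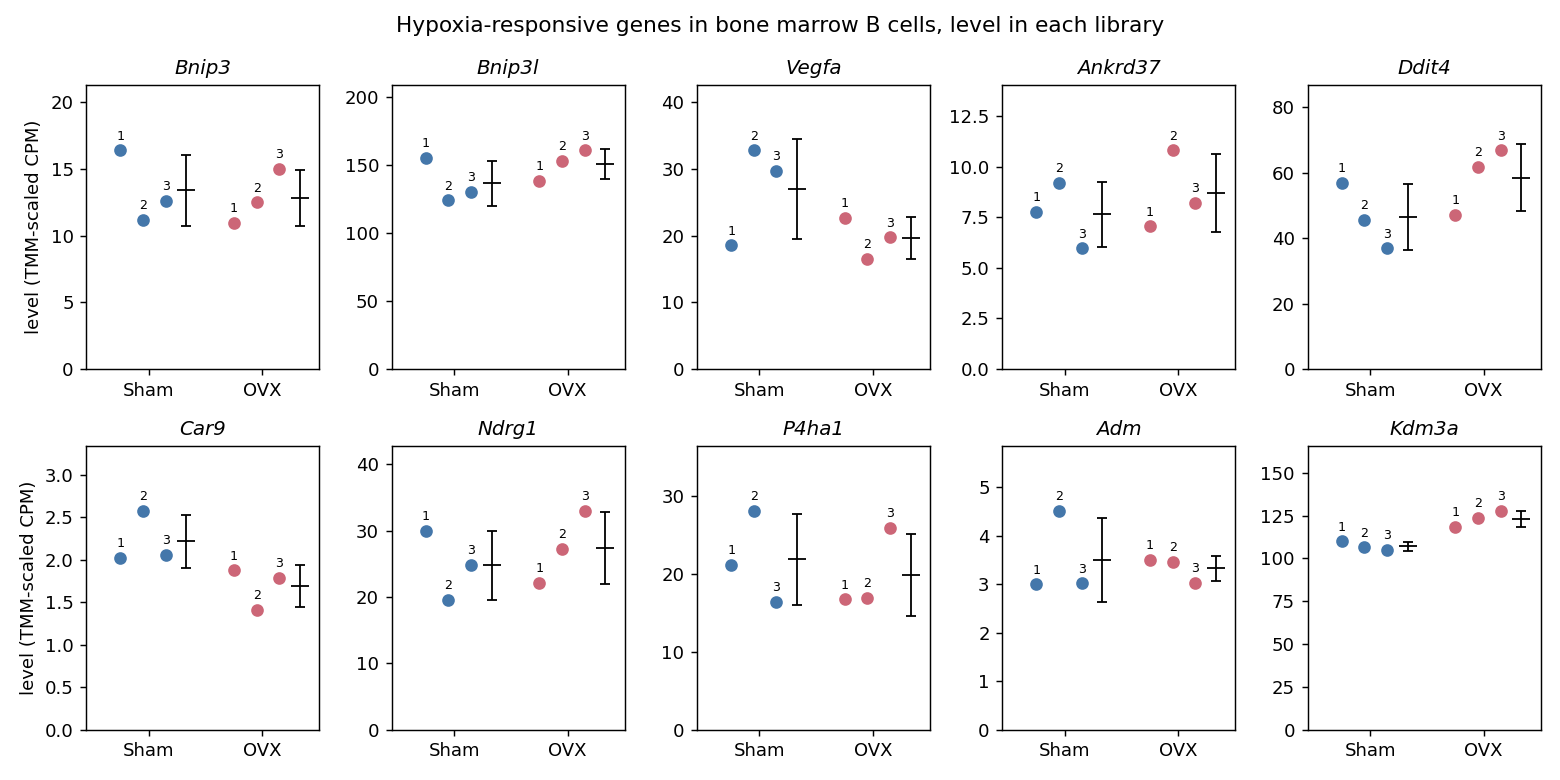
Level of each of the 10 genes in each library, in TMM-scaled CPM on a linear axis from 0, with 1 panel per gene. Points are libraries numbered by replicate (Sham blue, OVX red), and the bar with whiskers is the mean ± SD of 3 libraries. The groups overlap in 8 panels, and lie apart for Car9 (OVX below Sham) and Kdm3a (OVX above Sham). Over all genes tested, OVX lay below Sham in this way for 4.12% and above for 4.33%.

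Bnip3 and Bnip3l encode related proteins of the outer mitochondrial membrane that recruit the autophagy machinery to mitochondria. Bnip3 (ENSMUSG00000078566, chr7:138890836-138909506) had 16.4, 11.2 and 12.6 CPM in Sham and 10.9, 12.5 and 15.0 CPM in OVX. The means were 13.4 ± 2.68 and 12.8 ± 2.07 CPM (SD, n = 3 per group), and both the highest and the second lowest level were in Sham. OVX over Sham gave a log2 fold change of -0.06 (standard error 0.19, 95% interval -0.51 to 0.39), and its sign turned without Sham replicate 1 (0.11) or without OVX replicate 1 (0.04). Bnip3l, also known as Nix (ENSMUSG00000022051, chr14:66985238-67008877), had 155, 124 and 130 CPM in Sham and 139, 153 and 161 CPM in OVX. Its means were 137 ± 16.7 and 151 ± 11.3 CPM (SD, n = 3 per group), with a log2 fold change of 0.14 (standard error 0.10, 95% interval -0.10 to 0.39). Sham replicate 1 lay inside the OVX range and the other Sham libraries below it. A pseudogene, Bnip3l-ps, which might take some reads of Bnip3l, had only 10 to 26 reads against 3232 to 5313.

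The 2 genes did not keep a fixed ratio. The reads of Bnip3 divided by those of Bnip3l came to 0.105, 0.0903 and 0.0968 in Sham and 0.0788, 0.0816 and 0.0934 in OVX. OVX replicate 3 lay within the Sham range and the other OVX libraries below it (exact permutation test, two-sided, p = 0.2, with 0.1 the smallest p possible for 3 against 3).

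Ddit4, also called REDD1, restrains mTORC1 through the TSC1 and TSC2 complex when oxygen or energy is short, and also responds to glucocorticoids and DNA damage. Ddit4 (ENSMUSG00000020108, chr10:59949675-59951770) had 56.8, 45.7 and 36.9 CPM in Sham and 47.0, 61.8 and 66.8 CPM in OVX. The 2 highest levels were in OVX, while OVX replicate 1 lay below Sham replicate 1. The means were 46.5 ± 10 and 58.5 ± 10.3 CPM (SD, n = 3 per group). Its log2 fold change of 0.33 was the highest estimate of the 10 genes (standard error 0.18, 95% interval -0.10 to 0.77, adjusted p = 0.811 in edgeR's quasi-likelihood test), and ranged from 0.19 without Sham replicate 3 to 0.50 without Sham replicate 1.

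Vegfa and Adm encode secreted factors, the vascular endothelial growth factor A and the vasodilator peptide adrenomedullin. Vegfa (ENSMUSG00000023951, chr17:46016993-46032377) had 18.5, 32.8 and 29.7 CPM in Sham and 22.7, 16.5 and 19.7 CPM in OVX. Sham replicates 2 and 3 lay above the 3 OVX libraries, and Sham replicate 1 lay among them. The means were 27.0 ± 7.50 and 19.6 ± 3.09 CPM (SD, n = 3 per group), and the estimate of -0.46 on the log2 scale was the lowest of the 10 (standard error 0.22, 95% interval -0.99 to 0.06, adjusted p = 0.811 in edgeR's quasi-likelihood test). Its unadjusted p-value was 0.0768, and 0.0374 with DESeq2, 0.0315 with no filter for low counts and 0.00387 without Sham replicate 1, in model fits across all genes. In the same order, these fits put 574 of 15305, 755 of 27416, 1269 of 27416 and 2698 of 16051 genes under 0.05. The adjusted p of Vegfa was 0.273 without Sham replicate 1, with an estimate of -0.67, and the estimate became -0.30 without Sham replicate 2.

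Markers of other cells were uneven as well. The neutrophil genes held 0.268%, 0.372% and 1.03% of the counts in Sham and 0.434%, 0.116% and 0.126% in OVX, and the monocyte and macrophage genes 0.145%, 0.280% and 0.191% in Sham and 0.124%, 0.0848% and 0.211% in OVX. The summed share of the monocyte and macrophage genes was highest in Sham replicate 2 and lowest in OVX replicate 2, as was Vegfa. The listed erythroid genes had the same ends (0.0498% and 0.0147%). Between the ends, the summed monocyte and macrophage share was higher in OVX replicate 3 than in Sham replicate 3, whereas Vegfa was lower. Single genes of that list went different ways. C1qa rose from 64.6 CPM in Sham replicate 3 to 187 CPM in OVX replicate 3, while Ccr2 fell from 56.1 to 2.69 CPM. Ccr2 and Lyz2 were highest in Sham replicate 3, and C1qa and Vcam1 in Sham replicate 2. The part of these other cells in the Vegfa levels was not tested.

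Adm (ENSMUSG00000030790, chr7:110627657-110629820) had 3.0, 4.51 and 3.02 CPM in Sham and 3.50, 3.46 and 3.03 CPM in OVX, from 71 to 128 reads. Only Sham replicate 2 stood apart, and the other 5 libraries lay between 3.0 and 3.50 CPM. The log2 fold change was -0.08 (standard error 0.24, 95% interval -0.63 to 0.48), and 0.14 without Sham replicate 2. The long noncoding RNA gene Gm28863 spans Adm and had 0 reads in all 6 libraries.

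Car9 encodes carbonic anhydrase 9, a membrane enzyme that helps cells export acid and is widely used as a marker of hypoxic tissue. Car9 (ENSMUSG00000028463, chr4:43507026-43513729) had 2.03, 2.57 and 2.05 CPM in Sham and 1.87, 1.41 and 1.79 CPM in OVX. The 3 OVX libraries all lay below the 3 Sham libraries (exact permutation test, two-sided, p = 0.1, the smallest possible), as for 4.12% of all genes tested. The means were 2.22 ± 0.308 and 1.69 ± 0.245 CPM (SD, n = 3 per group), with a log2 fold change of -0.39 (standard error 0.25, 95% interval -0.97 to 0.19). These levels rested on 40 to 73 reads per library, for which counting alone gives a coefficient of variation of 13.8%, against 19.5% observed. Car9 also overlaps Arhgef39 and Tpm2, and whether the counting used the strand is not given in the sources used here. Arhgef39 had 539 to 936 reads and a log2 fold change of 0.17, opposite in sign to Car9. Tpm2, with 40 to 207 reads, had a log2 fold change of 1.03 (95% interval -0.01 to 2.08).

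P4ha1 encodes the catalytic subunit of the prolyl hydroxylase that matures collagen. P4ha1 (ENSMUSG00000019916, chr10:59323197-59373304) had 21.2, 28.0 and 16.3 CPM in Sham and 16.7, 16.9 and 25.9 CPM in OVX. Each group held 1 high library, Sham replicate 2 and OVX replicate 3, and the difference between libraries of the same group was larger than that between the groups. The log2 fold change was -0.14 (standard error 0.25, 95% interval -0.71 to 0.44). It was 0.082 without Sham replicate 2 and -0.38 without OVX replicate 3.

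Kdm3a encodes a histone demethylase that removes methyl groups from lysine 9 of histone H3 and needs oxygen for the reaction. Kdm3a (ENSMUSG00000053470, chr6:71588970-71632990) had 110, 106.5 and 105 CPM in Sham and 118, 124 and 128 CPM in OVX. The 3 OVX libraries all lay above the 3 Sham libraries (exact permutation test, two-sided, p = 0.1), as for 4.33% of all genes tested. The means were 107 ± 2.55 and 123 ± 4.66 CPM (SD, n = 3 per group), a fold of 1.15 or 0.20 on the log2 scale (standard error 0.06, 95% interval 0.06 to 0.34). This interval was the only one of the 10 that did not contain 0.

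The Kdm3a difference was small against a small spread, with 2607 to 4214 reads per library and a coefficient of variation of 8.17% over all 6 libraries, the lowest of the 10 genes. Its unadjusted p-value of 0.0119 in edgeR's quasi-likelihood test ranked 57 of 15305 genes and became an adjusted p of 0.811. Of 14 alternative fits, 10 kept the unadjusted p-value under 0.05, and the 14 ranged from 0.0115 to 0.215 in model fits across all genes. The log2 fold change stayed between 0.18 and 0.23 when each library was left out. With libraries scaled on the general B cell genes, the log2 fold change was 0.10 while the median of all genes moved by -0.10, and the groups overlapped.

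Ndrg1 encodes a cytoplasmic protein linked to differentiation and stress responses. Ndrg1 (ENSMUSG00000005125, chr15:66929318-66969641) had 29.9, 19.6 and 24.9 CPM in Sham and 22.1, 27.2 and 32.9 CPM in OVX. The groups overlapped over most of their range. Its log2 fold change was 0.15 (standard error 0.20, 95% interval -0.31 to 0.61), but -0.0011 without Sham replicate 2 and -0.0053 without OVX replicate 3. Ankrd37 encodes a small ankyrin repeat protein. Ankrd37 (ENSMUSG00000050914, chr8:45996908-46000414) had 7.77, 9.19 and 5.95 CPM in Sham and 7.05, 10.8 and 8.20 CPM in OVX. Again the groups overlapped, with a log2 fold change of 0.18 (standard error 0.23, 95% interval -0.36 to 0.73) that was -0.0017 without OVX replicate 2.

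**Figure D2:**
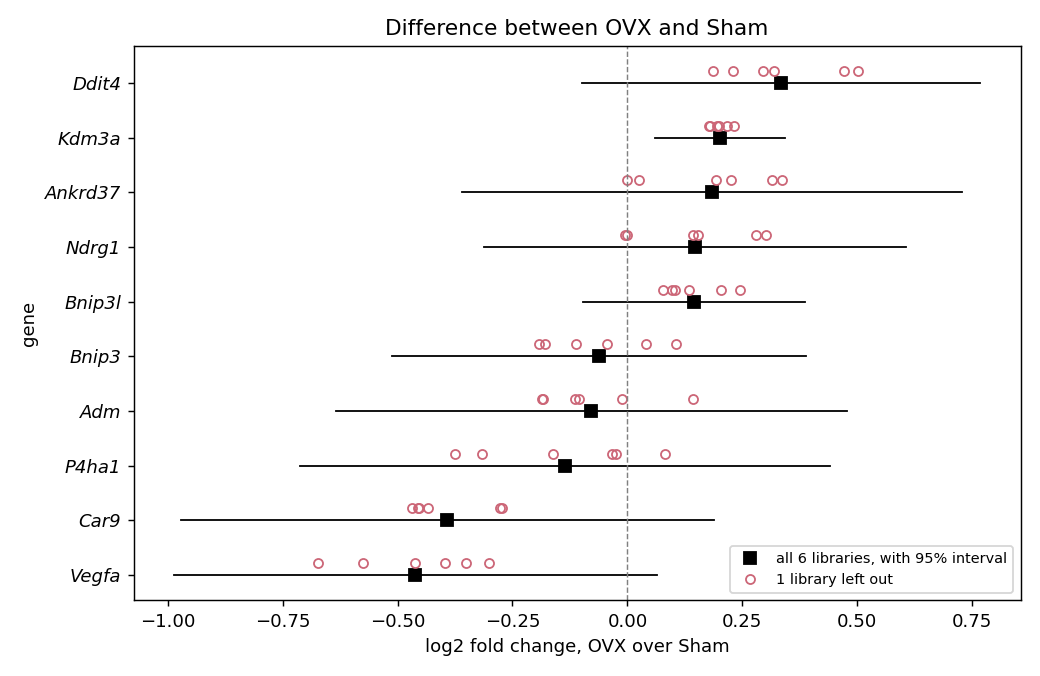
Log2 fold change of OVX over Sham for each gene, ordered by its estimate. Black squares with bars are the fit to all 6 libraries with its 95% interval, and open red circles the fits with 1 library left out. Only the Kdm3a interval (0.06 to 0.34) does not contain 0, and for Bnip3, Ankrd37, Ndrg1, P4ha1 and Adm the circles fall on both sides of 0.

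The 10 genes varied between libraries, in part within the groups. Their median coefficient of variation over the 6 libraries was 19.2%, against 13.3% for all genes tested, and the median ratio of the highest to the lowest library was 1.70, against 1.43. Vegfa varied most, with a ratio of 1.98, and Kdm3a least, with 1.21. Counting error was a small part of this for the genes with many reads, as it alone gives 1.60% for Bnip3l, where 10.4% was observed, and 3.98% for Vegfa, where 28.0% was observed.

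The genes did not all vary together. Sham replicate 2 held the highest level of Vegfa, Car9, P4ha1 and Adm, whereas OVX replicate 3 held the highest level of Bnip3l, Ddit4, Ndrg1 and Kdm3a and the lowest of none. Over all genes tested, Sham replicate 2 was the highest library for 25.7% and OVX replicate 3 for 13.1%. In Sham replicate 2, Vegfa lay 0.54 above its own mean on the log2 scale and P4ha1 0.46 above, while Ndrg1 lay 0.39 below its own mean and Bnip3 0.21 below. That library also had the lowest share of pro-B and pre-B genes and the highest share of mature B genes.

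The share of pro-B and pre-B genes gave another order of the libraries than the surgery did. Sham replicates 2 and 3 and OVX replicate 1, the 3 libraries with the lowest shares of pro-B and pre-B genes, held the 3 lowest levels of Bnip3l, Ddit4 and Ndrg1 and the 3 highest levels of Vegfa. These are 3 of the 10 genes and 1 of the 10, next to 14.4% and 14.1% of all genes tested, so the pattern was a common one in these libraries. The part of the B cell stages in the levels of these genes was not tested.

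**Figure D3:**
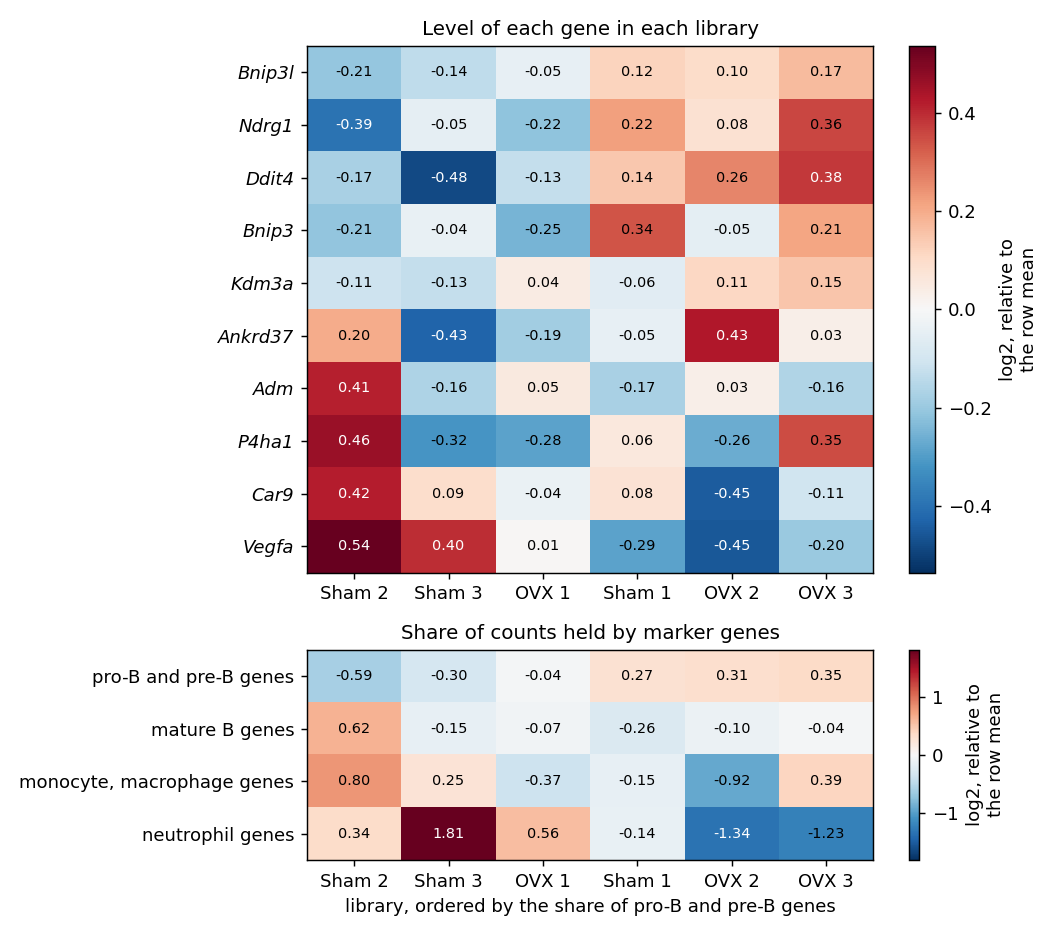
Level of each gene (upper panel) and share of counts held by marker genes (lower panel) in each library, as log2 difference from the mean over the 6 libraries, with libraries ordered by their share of pro-B and pre-B genes. Red is above and blue below the mean of the row, and each panel has its own colour scale. Vegfa goes from 0.54 in Sham replicate 2 to -0.20 in OVX replicate 3, and Bnip3l from -0.21 to 0.17.

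Next to these targets stand the genes that build HIF and sense oxygen. Of 10 listed, 8 were tested and none was called (edgeR's quasi-likelihood test) or had an unadjusted p-value under 0.05. Hif1a, the regulated subunit, had 101, 97.9 and 98.6 CPM in Sham and 98.6, 103.5 and 102 CPM in OVX, with a log2 fold change of 0.03 (95% interval -0.10 to 0.16). These are transcripts and carry nothing on the stability of the protein. Its partner Arnt had a log2 fold change of 0.04, the ubiquitin ligase subunit Vhl 0.16, the asparagine hydroxylase Hif1an 0.03, and the prolyl hydroxylases Egln1 and Egln2 0.08 each.

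Egln3 and Epas1 varied more. Egln3, a prolyl hydroxylase that is itself induced by HIF, had 6.46, 2.96 and 5.43 CPM in Sham and 5.38, 7.59 and 8.33 CPM in OVX, a log2 fold change of 0.52 (95% interval -0.22 to 1.27). Epas1, the HIF-2α subunit, had a log2 fold change of 0.66 (95% interval -0.47 to 1.78) on 25 to 124 reads, of which the 124 were in OVX replicate 3. That library also had the highest share of the 10 listed stromal genes, 0.0075% against 0.00214% to 0.00360% in the others. It was highest too for the listed megakaryocyte genes (0.03464%), endothelial genes (0.02945%) and pro-B and pre-B genes (0.366%). The part of any of these lists in Epas1 was not tested. Hif3a with 4 to 26 reads and Arnt2 with 0 to 6 reads were not tested. All 8 estimates were above 0, with a median of 0.08. Scaling on the general B cell genes, which moved the median of all genes by -0.10, left 3 of the 8 above 0. Relative to the median of all genes 8 of 8 were higher. A change of scaling moves all genes almost alike, so it could hardly alter this last count.

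Further hypoxia-responsive genes outside glycolysis were listed beside the 10. Of 38 listed, 30 were tested, 17 with higher and 13 with lower estimates in OVX and a median log2 fold change of 0.05, and none was called or had an unadjusted p-value under 0.05. Relative to the median of all genes 18 of the 30 were higher, a count that the choice of scaling could hardly alter. The highest estimate was that of Trf, the iron carrier transferrin (0.63). The lowest were those of Ak4, a mitochondrial adenylate kinase (-1.20, on 2 to 23 reads), and Ppfia4, a liprin (-0.69). The intervals of Trf, Ak4 and Ppfia4 contained 0.

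Of the relatives of the 10 genes in their own families, 10 of 21 listed were tested, 4 with higher and 6 with lower estimates, and none was called. Car12, the other membrane carbonic anhydrase tied to hypoxia, had 2.15, 2.36 and 1.25 CPM in Sham and 1.02, 0.918 and 0.938 CPM in OVX. OVX lay below Sham without overlap, as for 4.12% of all genes tested. Of the 10 tested relatives, 1 lay below in this way and 1 above. The log2 fold change of Car12 was -1.0 (95% interval -1.75 to -0.26, unadjusted p = 0.0152 and adjusted p = 0.811 in edgeR's quasi-likelihood test) on 25 to 67 reads. The cytosolic enzyme Car2 had a log2 fold change of -0.55 (95% interval -1.11 to 0.01) and Car13 one of 0.20. Vegfc, the lymphatic growth factor, had the highest estimate of these relatives, 0.23.

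Of the receptors and partners through which the 10 gene products act, 24 of 26 listed were tested, 18 with higher and 6 with lower estimates and a median of 0.06, and none was called. Relative to the median of all genes 19 of the 24 were higher, again a count that the choice of scaling could hardly alter. Nrp1, a coreceptor of VEGF, had 5.15, 10.4 and 9.62 CPM in Sham and 4.93, 3.35 and 5.99 CPM in OVX, a log2 fold change of -0.82 (95% interval -1.58 to -0.05, unadjusted p = 0.0389 and adjusted p = 0.811 in edgeR's quasi-likelihood test). Its order of libraries resembled that of Vegfa, with Sham replicates 2 and 3 highest and OVX replicate 2 lowest. Kdr, the main signalling receptor of VEGF, had the highest estimate (0.70, on 29 to 91 reads), with OVX above Sham without overlap. This held for 1 of the 24 genes, next to 4.33% of all genes tested. Kdr is itself 1 of the 10 listed endothelial markers, none of which was at 0 in any library. They held 0.0265% to 0.0293% of the counts in Sham and 0.0260% to 0.0295% in OVX. Most of it came from Pecam1 (223 to 230.5 CPM), so this share says little on the other endothelial markers. Of the 8 listed markers tested, 4 had higher and 4 had lower estimates, from -1.10 to the 0.70 of Kdr, with a median of -0.02. The part of endothelial transcripts in Kdr was not tested. Bcl2l1, a survival factor that binds BNIP3 proteins, followed with 0.37, and Bcl2 had -0.38, both with overlapping groups.

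The glycolysis genes, which share the HIF pathway with the 10 genes, had lower estimates in OVX for 17 of the 20 tested, and their median was -0.14 on the log2 scale. None was called or had an unadjusted p-value under 0.05 in edgeR's quasi-likelihood test. Slc16a3, the lactate exporter, had -1.11 and Pfkfb4, a regulator of glycolytic flux, -0.73, while Aldoc had 0.40 and Pfkfb3 0.10. The 18 neutrophil genes all had lower estimates in OVX too, with a median of -1.29, and Slc16a3 had the same order of libraries as their share of counts. Their part in the glycolysis genes was not tested. Against these, the 10 genes outside glycolysis were 5 higher and 5 lower under TMM, library size, upper-quartile, DESeq2 and B cell gene scaling alike. The difference between both lists was not tested.

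**Figure D4:**
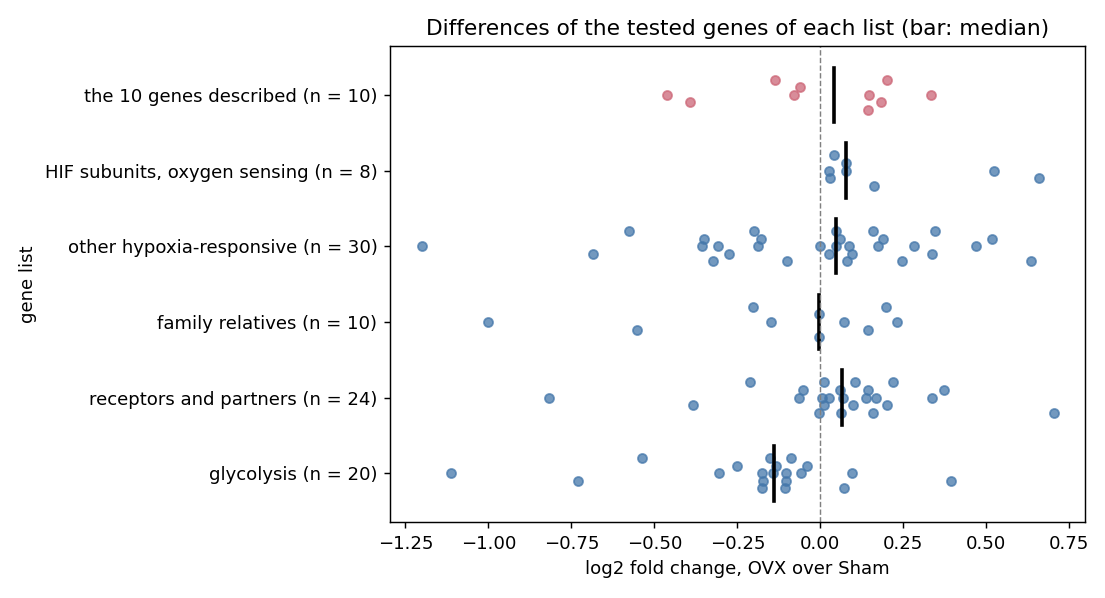
Log2 fold change of OVX over Sham for the tested genes of each list, 1 point per gene, with the median as a black bar. The 10 genes (red) spread from -0.46 to 0.33 around a median of 0.04, and the glycolysis genes have a median of -0.14. Points are set apart vertically only to keep them visible, and the lists share some genes.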

How the data were processed

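The authors deposited raw read counts per Ensembl gene for the 3 Sham and 3 OVX libraries, without normalization. The submitters' processing notes name CASAVA, Bowtie 0.12.2 and mm10, and the counting tool, its use of strand and the annotation are not given in the sources used here. Symbols were matched for 54409 of 54532 identifiers, and gene positions were taken from RefSeq (GRCm38.p6, the assembly behind mm10).

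The analysis used edgeR 4.0.16 in R 4.3.3. filterByExpr by group kept 15305 genes, and after TMM scaling both groups were compared by the two-sided quasi-likelihood test without a block, with Benjamini-Hochberg adjustment and a threshold of 0.05. The standard error was the log2 fold change over the root of F, and the interval covers 95%. DESeq2 1.42.0 and limma-voom (limma 3.58.1) were alternatives, with other scalings and filters, a block on the replicate number and each library left out. Single values were compared by the exact permutation test. The fits were tested on simulated data.

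The 10 genes and all gene lists were chosen with earlier results of these data known. All 10 genes and the oxygen sensing genes are named, and of the other related lists the 2 highest and 2 lowest log2 fold changes and any gene at an unadjusted p-value under 0.05. One gene that this rule names is not reported here. The genes overlapping or resembling Bnip3l, Car9 and Adm were named after their values were seen. Totals of 23838775 to 33136701 counts gave 40 reads for the lowest value of the 10 genes, and counting errors cover counting alone, since reads carry no molecular identifiers. No pair of libraries agreed within sampling noise.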

Additional observations from a re-analysis of the deposited data

How the results depend on the processing

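Of 140 values of the 10 genes over 14 alternatives, 133 kept their direction and 0 passed the threshold. The 7 that turned came from leaving out 1 library: Bnip3 0.11 without Sham replicate 1 and 0.04 without OVX replicate 1, Ankrd37 -0.0017 without OVX replicate 2, Ndrg1 -0.0011 without Sham replicate 2 and -0.0053 without OVX replicate 3, and P4ha1 0.082 and Adm 0.14 without Sham replicate 2. Over the 6 such fits the log2 fold change ranged from -0.19 to 0.11 for Bnip3, from -0.0017 to 0.34 for Ankrd37, from -0.0053 to 0.30 for Ndrg1, from -0.38 to 0.082 for P4ha1 and from -0.19 to 0.14 for Adm. The cause was not tested. The lowest adjusted p of the 10 genes over these alternatives was 0.273, without Sham replicate 1.

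All genes at an unadjusted p-value under 0.05 numbered 574, and 1269 of 27416 genes without a filter for low counts. When 1 library was left out they numbered from 233 of 15737 (without OVX replicate 2) to 2698 of 16051 (without Sham replicate 1). With the replicate block they numbered 206. The same-numbered libraries of both groups tended to deviate in opposite directions (r = -0.41, -0.19 and -0.28 over 15305 genes). This does not settle whether they were handled as pairs, which the labels do not say. Levels per transcript length were not run, as no transcript lengths were at hand, and levels of different genes were not compared. The spread between libraries limited genes with more reads as well: P4ha1, on 406 to 856 reads, had a standard error of 0.25, as had Car9 on 40 to 73.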
